A study of Mus musculus with 12 samples.

Results

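The comparison described here is that of Jag1 Ndr/Ndr with wild-type organoids from the hilum of the mouse liver, in which the 3 hilar libraries of each genotype were chosen by their labels, 6 of the 12 libraries in the series. Organoids of intrahepatic cholangiocytes, the cells that line the bile ducts, were grown untreated from 6 mice and their RNA was sequenced at passage 5. The wild-type animals (WT, Jag1+/+) were mice 1221, 1223 and 1225. The Jag1 Ndr/Ndr animals, with a pair of Ndr alleles, were mice 1219, 1220 and 1224. Each mouse gave 1 hilar culture and 1 culture from the periphery of the liver. The 6 peripheral cultures, 3 of each genotype, enter below only where the hilar difference is set against the peripheral one. All 15014 genes that passed the filter on low counts are members of the comparison, of 53700 identifiers in the count table and 26306 with at least 1 read in a hilar library.

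Jag1 encodes Jagged1, a transmembrane ligand that binds Notch receptors on a neighbouring cell. Binding leads to release of the receptor's intracellular domain, which joins the DNA-binding protein RBPJ and raises transcription of target genes such as Hes1 and Nrarp. In the developing liver this signal steers bipotent progenitors around the portal vein toward the biliary fate, and loss of JAG1 function in humans causes Alagille syndrome, in which bile ducts are sparse. Ndr is a missense allele, so its transcript is still made and the level of Jag1 RNA cannot check the genotype labels. The allele is present in all cells of the animal, and each library stands for a culture from 1 liver. No age or sex of the mice is given in the labels.

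Cultures were derived on different days of 1 month, and the day is partly tied to genotype. Mice 1221 and 1223 were processed on day 15, mouse 1219 on day 17 and mouse 1220 on day 18. Mice 1225 (WT) and 1224 (Ndr) were processed on day 21, the only day with both genotypes. A fit with derivation date as a factor therefore takes its genotype difference mainly from that pair. Hilar libraries held from 6708822 to 16030880 counts. The median SD of log2 CPM (read counts scaled to the size of the library) among replicates was 0.427 in WT and 0.439 in Ndr hilar cultures, against 0.242 and 0.39 in the peripheral ones. In a principal component analysis of the hilar libraries, the first component carried 43.8% of the variance and did not separate the genotypes. It ran from -85.58 (Ndr 1220) through -32.82 (WT 1221), -19.34 (Ndr 1224), 3.04 (Ndr 1219) and 53.13 (WT 1223) to 81.57 (WT 1225). WT 1225 and Ndr 1220, at the ends of this component, are the libraries to bear in mind in what follows. Ndr 1220 was the highest library in 23% of tested genes and the lowest in 23.8%. These shares were 22.2% and 23.5% for WT 1225, and 21.8% and 20.5% for Ndr 1219. Clu, an abundant biliary glycoprotein, was at 4805 CPM in WT 1225 and between 17769 and 25364 CPM in the other hilar libraries. Spp1, the secreted phosphoprotein osteopontin, was at 1242 CPM in WT 1225 and between 3972 and 8390 CPM elsewhere, while the keratin Krt18 was at 6534 CPM against 1344 to 2336 CPM.

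The cells carried the label's identity. All 9 cholangiocyte markers were detected in every hilar library, with a summed level of 12000 to 19300 CPM in WT and 13000 to 14100 CPM in Ndr. Of 8 hepatocyte markers, 5 (Cps1, Cyp3a11, Cyp2e1, Tat and Pck1) were at 0 in all 6 libraries, and the list summed to 0.502 to 18.1 CPM in WT and 13.7 to 49.1 CPM in Ndr, most of it Alb. Markers of fibroblasts and stellate cells summed to at most 1.79 CPM with 4 of 8 at 0, endothelial markers to at most 0.154 CPM with 2 of 6 at 0, and neural markers to at most 1.7 CPM with 2 of 4 at 0. Immune markers summed to 1.83 to 6.64 CPM in WT and 1.74 to 3.06 CPM in Ndr, nearly all of it Cd68, with 4 of 7 at 0, Ptprc, Adgre1 and Clec4f among them. The mesothelial list, led by Msln, summed to 37.4 to 658 CPM in WT and 106 to 269 CPM in Ndr. Its member Wt1 was at 0 in the 3 WT libraries and at 1.04 to 3.87 CPM in the Ndr libraries. The gut and pancreas list summed to 174 to 380 CPM in WT and 132 to 550 CPM in Ndr.

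No gene passed an adjusted p of 0.05 by the quasi-likelihood test of edgeR, the main test: 0 of 15014, or 0%. At an unadjusted p under 0.05 there were 982 genes (6.54% of those tested), of which 430 (2.86%) had higher values in Ndr and 552 (3.68%) lower values. That count was 1985 without WT 1221, 518 without WT 1225 and 514 without Ndr 1220. limma-voom called 0 genes. The Wald test of DESeq2 called 42 of 14971 genes with an adjusted p (0.281%), 13 higher in Ndr (0.0868%) and 29 lower (0.194%). All 3 Ndr libraries lay above all 3 WT libraries in 686 genes (4.57%) and below them in 628 (4.18%). Whole counts were recovered from the authors' normalized table, and 99.4% of them matched raw counts adjusted for derivation date with genotype kept. On them edgeR called 826 of 14203 genes (5.82%). Each Ndr mouse had its own derivation day, so that adjustment can also remove spread among Ndr replicates. The test took no account of this, so its p may be too small. A two-sided exact permutation test of 1 gene over 3 cultures a side can reach no p below 0.1. Complete separation of the genotypes, in either direction, has that probability of 0.1 under shuffled labels. The shares above and below WT together do not exceed it, so separation is used here only as a description. What follows therefore gives measured values and their spread, and words of change are kept for the genes that DESeq2 called.

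**Figure D1:**
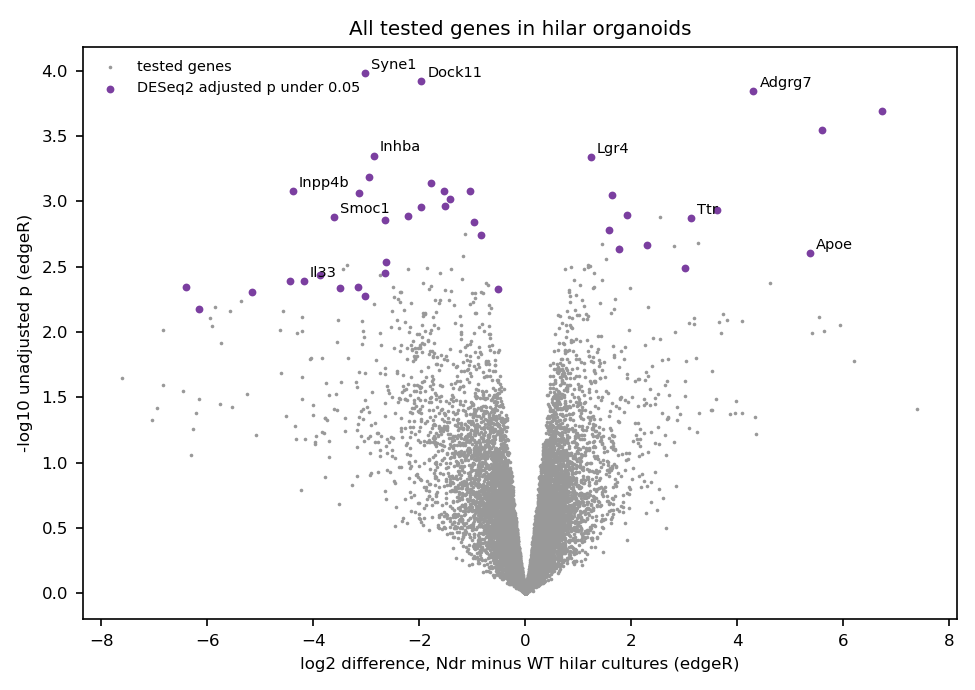
Each point is 1 of the 15014 tested genes in hilar organoids, with the edgeR log2 difference (Ndr minus WT) on the x axis and -log10 of the unadjusted edgeR p on the y axis. Purple points are the 42 genes with a DESeq2 adjusted p under 0.05; none of the points passed the edgeR threshold after adjustment.

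The Notch pathway itself showed no shared shift between genotypes in the hilar cultures. The ligand Jag1 was at 186, 99.6 and 73.1 CPM in WT 1221, 1223 and 1225, and at 89.4, 196 and 139 CPM in Ndr 1219, 1220 and 1224; all values below keep this order of mice. The groups overlapped over most of their range, and the log2 difference (Ndr minus WT) was 0.24 with a standard error (SE) of 0.431. Without Ndr 1220 the difference was -0.067. Jag2, a second Jagged ligand, was at 24.2, 31.7 and 50.9 CPM in WT and 21.6, 19.99 and 32.8 CPM in Ndr (log2 difference -0.52, SE 0.317). Dll1, a Delta-type ligand, was at 38.1, 12.5 and 6.28 CPM in WT and 31.8, 53.3 and 47.8 CPM in Ndr (log2 difference 1.21, SE 0.836). The WT range of Dll1 spanned the lowest Ndr value. The other ligand genes were under the filter, with 0 reads for Dll3, 5 for Dll4, 33 for Dlk1 and 3 for Dlk2 over the 6 hilar libraries.

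Receptor genes overlapped between genotypes as well. Log2 differences were -0.69 (SE 0.497) for Notch1, 0.09 (SE 0.627) for Notch2, 0.12 (SE 0.902) for Notch3 and -0.07 (SE 0.866) for Notch4, with 4 of 4 receptors tested. The sign of Notch2, Notch3 and Notch4 changed in some of the alternatives. The widest spread within a genotype was in Ndr, where Notch2 was at 29.7, 139 and 76.9 CPM and Notch3 at 4.55, 17.8 and 15.4 CPM, Ndr 1219 being low in each. Of 27 tested genes for ligand and receptor processing and for the transcription complex, 17 had higher and 10 lower values in Ndr, with a median log2 difference of 0.09 and 0 at an unadjusted edgeR p under 0.05. The median was -0.0404 without Ndr 1220 (12 higher, 15 lower) and -0.0579 without WT 1223 (11 higher, 16 lower), 0.33 without WT 1221, 0.254 without Ndr 1219, 0.0354 without WT 1225, 0.0528 without Ndr 1224 and 0.328 with derivation date as a factor. Over all tested genes 7433 of 15014 were higher and the median was -0.00464.

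Among Notch targets, Nrarp, which encodes a feedback inhibitor that binds the Notch transcription complex, was the exception. It was at 4.94, 4.94 and 5.28 CPM in WT and at 1.64, 0.914 and 2.68 CPM in Ndr. The groups did not overlap, and the 3 WT libraries, WT 1225 included, lay close together. Of all tested genes, 4.18% lay wholly below WT and 4.57% wholly above. A single separated gene among the tested ligands, receptors and targets is therefore only a description. The log2 difference was -1.53 (SE 0.436) with an unadjusted edgeR p of 0.00478, and the DESeq2 adjusted p was 0.121, so Nrarp passed no adjusted threshold on the raw counts. In peripheral cultures the Nrarp difference was 0.08 (SE 0.413), and the interaction (hilar minus peripheral difference) had an unadjusted edgeR p of 0.0211. Hes1, the transcriptional repressor most used as a Notch readout in ducts, was at 127, 115 and 62.0 CPM in WT and 110, 111 and 108 CPM in Ndr (log2 difference 0.11, SE 0.251). Its Ndr values fell inside the WT range, which WT 1225 set at the low end. The low-level targets Hey1 and Dtx1 gave 0.55 (SE 0.89) and -0.85 (SE 1.16; 3.001 with date as a factor), and Hes5, Hes7, Hey2 and Heyl had too few reads to be tested.

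**Figure D2:**
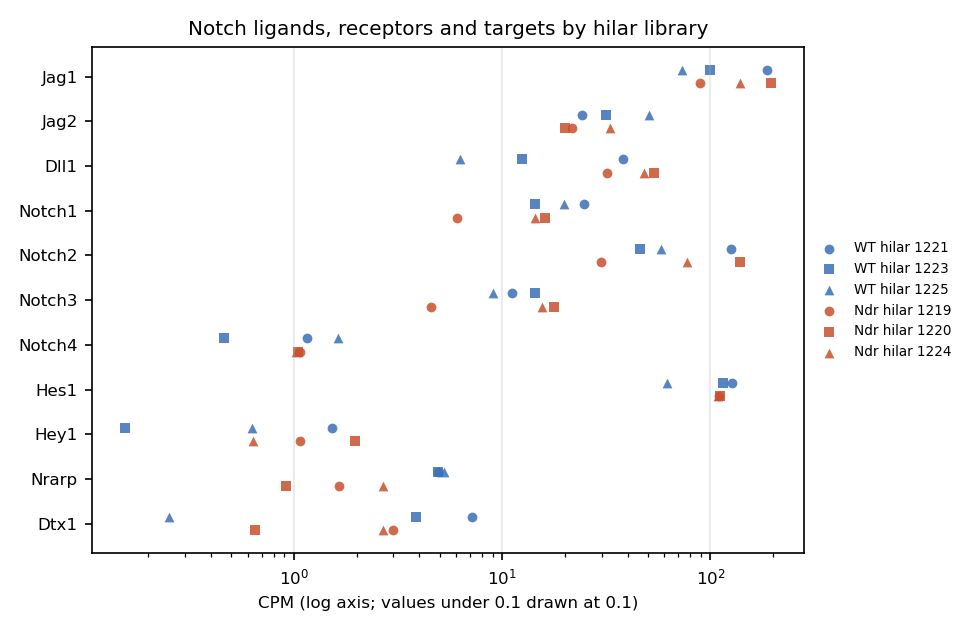
CPM on a log axis for the 3 ligands, 4 receptors and 4 targets of the Notch pathway that were tested, 1 point per hilar library (blue WT, red Ndr). The genotypes overlap in every gene but Nrarp, which lies between 0.914 and 2.68 CPM in Ndr and between 4.94 and 5.28 CPM in WT. Of all tested genes, 4.18% lie wholly below WT and 4.57% wholly above.

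The 14 genes with the smallest p among those lower in Ndr all separated the genotypes completely, a property shared by 4.18% of tested genes. All 14 were called by DESeq2. They were picked by p on these same libraries, so neither the separation nor the DESeq2 calls are separate support. By edgeR their adjusted p lay between 0.7155 and 0.7499. They are described by what their products do. Syne1, which encodes nesprin-1, a spectrin-repeat protein that ties the nucleus to the cytoskeleton, was at 36.5, 47.0 and 19.6 CPM in WT and 2.90, 7.58 and 2.17 CPM in Ndr. The lowest WT culture was well above the highest Ndr culture, and the log2 difference was -3.03 (SE 0.518, edgeR adjusted p = 0.715, DESeq2 adjusted p = 2.28e-05). Dock11, an exchange factor that activates the small GTPase Cdc42, was at 41.7, 63.5 and 83.8 CPM in WT and 19.9, 8.36 and 19.7 CPM in Ndr. Its log2 difference was -1.97 (SE 0.343, DESeq2 adjusted p = 0.000137). The other genes of these classes did not share the pattern. Of 15 tested genes of the nuclear envelope bridge and lamina, 5 were higher and 10 lower in Ndr with a median of -0.24 (-0.452 without WT 1223 and -0.371 without Ndr 1219), and Syne1 was the only one at an unadjusted edgeR p under 0.05. Of 11 tested Dock genes, 6 were higher and 5 lower. Dock5 was the other one under 0.05, at 36.1, 65.0 and 114 CPM in WT and 12.2, 17.9 and 36.8 CPM in Ndr, where the highest Ndr value passed the lowest WT value.

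Secreted factors and receptors were part of the lower set. Inhba encodes the subunit of activin A, a ligand of the TGF-beta superfamily, and was at 55.6, 62.7 and 33.9 CPM in WT and 12.2, 4.57 and 3.96 CPM in Ndr. It fell by 2.86 on the log2 scale (SE 0.584, DESeq2 adjusted p = 0.000918). Ret, the receptor tyrosine kinase for ligands of the GDNF family, was at 17.9, 32.9 and 43.2 CPM in WT and 5.03, 1.83 and 3.70 CPM in Ndr, a log2 difference of -3.14 (SE 0.696, DESeq2 adjusted p = 0.00399). The lowest WT value of Ret was above 3 times the highest Ndr value. Smoc1, a secreted calcium-binding matrix protein that modulates BMP signalling, was at 18.5, 11.6 and 32.5 CPM in WT and 2.22, 1.04 and 1.79 CPM in Ndr (log2 difference -3.61, SE 0.85). Antxr2, a transmembrane receptor for collagen VI and laminin, was at 77.2, 175 and 115 CPM in WT and 35.9, 35.7 and 54.0 CPM in Ndr (log2 difference -1.55, SE 0.342). Within the activin and TGF-beta list, 18 of 33 tested genes were higher and the median was 0.07, which was -0.0651 without WT 1225, -0.0459 without Ndr 1220, 0.18 without Ndr 1219, 0.245 without WT 1221 and 0.327 with derivation date as a factor. Tgfb1 was the other member under 0.05, with a log2 difference of -1.17 (SE 0.492).

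Metabolic, RNA and chromatin genes completed the lower set. Smox, the oxidase that turns spermine into spermidine, was at 84.5, 156 and 124 CPM in WT and 44.9, 28.5 and 32.3 CPM in Ndr (log2 difference -1.78, SE 0.387). Of 15 tested polyamine genes, 6 were higher and 9 lower, with Odc1 (rate-limiting for polyamine synthesis) overlapping between genotypes. Polr1b, a core subunit of the polymerase that transcribes ribosomal RNA genes, was at 48.2, 36.3 and 52.6 CPM in WT and 15.8, 23.8 and 26.8 CPM in Ndr (log2 difference -1.05, SE 0.233). Zc3h12a, an RNase that degrades cytokine transcripts, was at 56.7, 75.1 and 37.1 CPM in WT and 25.0, 20.1 and 17.6 CPM in Ndr (log2 difference -1.43, SE 0.322). In each of these genes the 3 Ndr cultures lay below the WT range. Hmga1, an architectural chromatin protein abundant in proliferating and progenitor cells, was at 96.2, 243 and 197 CPM in WT and 47.3, 22.9 and 67.4 CPM in Ndr (log2 difference -1.96, SE 0.45). Fgf13, an intracellular FGF family member that binds sodium channels, was at 9.21, 12.05 and 27.8 CPM in WT and 2.61, 1.31 and 2.30 CPM in Ndr (log2 difference -2.96, SE 0.634). Inpp4b, a phosphatase that removes a phosphate from phosphatidylinositol 3,4-bisphosphate, was at 5.85, 3.24 and 44.8 CPM in WT and 0.967, 0.784 and 0.766 CPM in Ndr. WT 1225 dominated its mean: the log2 difference was -4.39 with that library and -2.43 without it. Tmem189 (the plasmalogen-forming desaturase) and Fam84a gave -1.52 (SE 0.348; -1.01 without WT 1225) and -2.22 (SE 0.521).

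The 14 genes with the smallest p among those higher in Ndr also separated the genotypes completely, against 4.57% of all tested genes. DESeq2 called 9 of them. These genes were picked in the same way, so neither property is separate support. Among them was Adgrg7, an orphan adhesion G protein-coupled receptor known from intestinal epithelium. It was at 35.9, 24.7 and 10.4 CPM in WT and 613, 621 and 168 CPM in Ndr. The lowest Ndr culture exceeded the highest WT culture by more than 4 times, and the log2 difference was 4.30 (SE 0.763, edgeR adjusted p = 0.715, DESeq2 adjusted p = 6.55e-07). Of 15 tested adhesion receptors, 9 had higher values in Ndr (6 without WT 1225 and 7 without Ndr 1220 or Ndr 1224), and Adgrg7 alone was at an unadjusted edgeR p under 0.05. Lgr4, a receptor for R-spondins that strengthens Wnt signalling, was at 78.4, 56.2 and 54.9 CPM in WT and 136, 174 and 135 CPM in Ndr (log2 difference 1.23, SE 0.252, DESeq2 adjusted p = 0.00731). Each genotype was tight around its own level. Wls, the carrier that brings Wnt ligands to the cell surface, was at 250.5, 255.5 and 148 CPM in WT and 362, 425 and 407 CPM in Ndr (log2 difference 0.87, SE 0.232, DESeq2 adjusted p = 0.0649). Lgr6, a related R-spondin receptor at low levels, went the other way, at 1.342, 4.33 and 7.91 CPM in WT and 0.193, 0.653 and 0.383 CPM in Ndr (log2 difference -3.45, SE 0.926). Over 32 tested genes of the Wnt and R-spondin list, 20 were higher in Ndr and the median was 0.11. That direction rested on single libraries: the median was -0.118 without Ndr 1220, the highest library in 19 of the 32, with 11 higher and 21 lower, and -0.0416 without WT 1223, while it was 0.0365 without WT 1225, 0.278 without WT 1221 and 0.346 without Ndr 1219. Lgr5, the stem cell marker of the family, was at 33.0, 32.6 and 45.7 CPM in WT and 34.1, 54.5 and 34.9 CPM in Ndr, with the genotypes overlapping.

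Several genes of the higher set encode metabolic enzymes or secreted carriers. Acss3, a mitochondrial acyl-CoA synthetase that prefers propionate, was at 24.7, 14.8 and 8.42 CPM in WT and 64.3, 77.5 and 40.6 CPM in Ndr (log2 difference 1.92, SE 0.449, DESeq2 adjusted p = 0.0192). Aldh1a1, a retinaldehyde dehydrogenase that makes retinoic acid, was at 10.6, 11.7 and 5.65 CPM in WT and 42.9, 55.4 and 40.0 CPM in Ndr (log2 difference 2.30, SE 0.581, DESeq2 adjusted p = 0.0307). Ttr, which encodes the thyroxine and retinol carrier transthyretin, was at 5.00, 7.72 and 2.01 CPM in WT and 25.0, 51.3 and 52.0 CPM in Ndr (log2 difference 3.13, SE 0.738, DESeq2 adjusted p = 0.00952). All 3 genes were at their lowest in WT 1225, and their lowest Ndr values were still above every WT value. Apoe, the lipid carrier apolipoprotein E, was nearly silent in WT at 0.427, 0.618 and 0 CPM and was at 3.38, 34.4 and 7.02 CPM in Ndr (log2 difference 5.37, SE 1.38, DESeq2 adjusted p = 0.00952). Its values among the 3 Ndr cultures differed by about 10 times, and without 1 library the difference ranged from 3.86 to 5.84.

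Ttr and Apoe are also made in quantity by hepatocytes, so the plasma protein list was read beside them. Of its 17 tested genes, 7 were higher and 10 lower in Ndr with a median of -0.12, and WT 1225 was the lowest library in 14 of 17. Alb, the most specific of them, was at 15.9, 0.618 and 0.502 CPM in WT and 13.2, 40.9 and 14.7 CPM in Ndr, so WT 1221 lay inside the Ndr range. Without WT 1221 the list median was 0.616, and with limma-voom it was 0.73. It was negative without any other single library: -0.651 without WT 1225, -0.539 without Ndr 1220, -0.301 without Ndr 1219, -0.21 without WT 1223 and -0.0565 without Ndr 1224. With derivation date as a factor it was 3.45. That fit leans on the same-day pair, Ndr 1224 minus WT 1225, where the median was 3.46 and WT 1225 is the low library. The part of hepatocyte-type transcripts in the Ttr and Apoe values was not tested. In bulk RNA a larger number of cells of a type and more RNA per cell cannot be told apart.

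The remaining genes of the higher set are surface, matrix and modifying enzymes. St3gal6, a sialyltransferase that builds sialylated glycans, was at 15.5, 20.7 and 9.42 CPM in WT and 52.5, 41.4 and 41.4 CPM in Ndr (log2 difference 1.57, SE 0.381, DESeq2 adjusted p = 0.0421). Ddit4l, an inhibitor of mTORC1 signalling, was at 96.0, 41.7 and 32.7 CPM in WT and 117, 275 and 193 CPM in Ndr (log2 difference 1.77, SE 0.452, DESeq2 adjusted p = 0.0399). The gap between the highest WT and the lowest Ndr value was narrow for Ddit4l and wide for St3gal6. Flrt3, a leucine-rich repeat membrane protein of cell adhesion and guidance, was at 41.8, 44.3 and 46.7 CPM in WT and 100, 169 and 112 CPM in Ndr (log2 difference 1.52, SE 0.398, DESeq2 adjusted p = 0.0796). Cmtm8, a membrane protein tied to EGFR uptake, gave 1.63 (SE 0.366, DESeq2 adjusted p = 0.0238). Hdhd3, Ttll10, Nat8f4 and P3h4 gave 1.44, 1.75, 1.18 and 1.22 and were not called by DESeq2. Nat8f4 belongs to a family of similar copies, and the sources used here do not say how shared reads were counted.

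**Figure D3:**
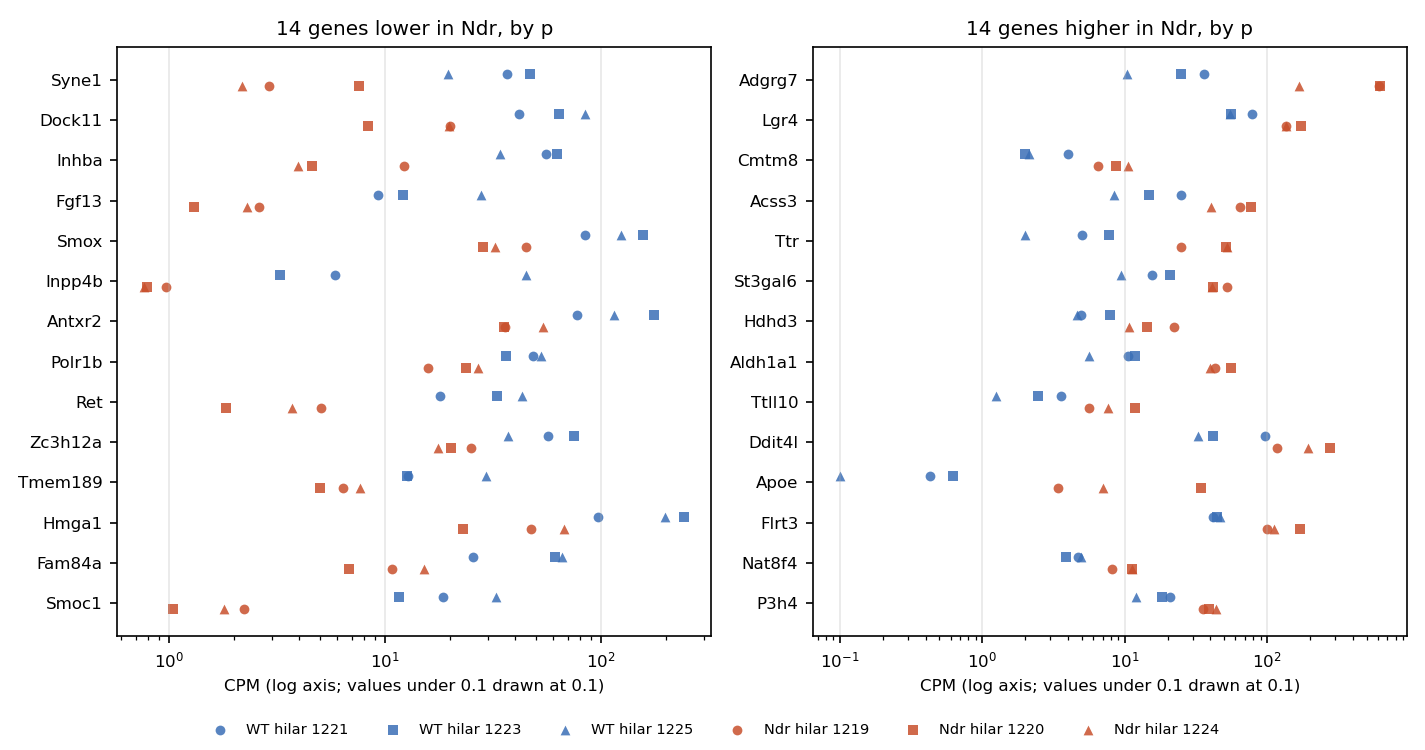
CPM on a log axis for the 14 genes lower (left) and the 14 genes higher (right) in Ndr hilar organoids with the smallest edgeR p, 1 point per library (blue WT, red Ndr). In all 28 genes the 3 Ndr points lie on one side of the 3 WT points, and Inpp4b shows the isolated WT 1225 value of 44.8 CPM.

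Since each of the 28 genes separated the genotypes completely, its direction in hilar cultures is set by the way it was chosen, also with a library left out or in the same-day pair alone, and is not a sign of stability. In the periphery 438 of all tested genes (2.92%) had an unadjusted edgeR p under 0.05. In peripheral cultures of the same mice, 13 of the 14 lower and 12 of the 14 higher genes had a difference of the same sign. Of them, 4 and 6 separated the genotypes there, against 3.61% of all tested genes below and 5.41% above. Over all 15014 tested genes, 8189 were higher in Ndr in the periphery. The share with the same sign in both regions was not counted, and the mice are the same, so this is not an independent repeat. St3gal6 had a peripheral log2 difference of 1.63 (SE 0.381), close to its hilar 1.57, and Ttr one of 2.33 (SE 0.739). Inhba and Syne1 gave -1.62 (SE 0.551) and -1.25 (SE 0.475) in the periphery.

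The test of the difference between regions is the interaction, and edgeR called 0 of 15014 genes for it, with 451 (3%) at an unadjusted p under 0.05; limma-voom called 0 and DESeq2 called 4. Of the 28 genes, 10 lower and 5 higher ones had an unadjusted interaction p under 0.05, all with an edgeR adjusted p of 0.994. The 28 were chosen on the hilar difference, which is a term of the interaction, so these counts are a description. Smoc1 had the smallest, 0.000632: its WT values were 18.5, 11.6 and 32.5 CPM in the hilum but 1.76, 2.63 and 3.71 CPM in the periphery, where Ndr cultures were at 19.9, 1.04 and 7.68 CPM. The peripheral log2 difference of Smoc1 was 1.82 (SE 0.792), the opposite sign of the hilar one. Acss3 and Ddit4l had peripheral differences of -0.01 (SE 0.436) and -0.08 (SE 0.441), with unadjusted interaction p of 0.00997 and 0.0129 by edgeR. For Inpp4b, Fgf13 and Dock11 these were 0.00937, 0.0107 and 0.0128. Prox1, a transcription factor of hepatic progenitors, was at 14.5, 7.26 and 6.03 CPM in WT and 7.06, 93.8 and 32.2 CPM in Ndr hilar cultures. Its hilar difference was 2.24 (SE 0.919), and 1.08 without Ndr 1220, with overlapping groups, its peripheral one -1.72 (SE 0.938), and its unadjusted interaction p 0.0114 by edgeR.

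**Figure D4:**
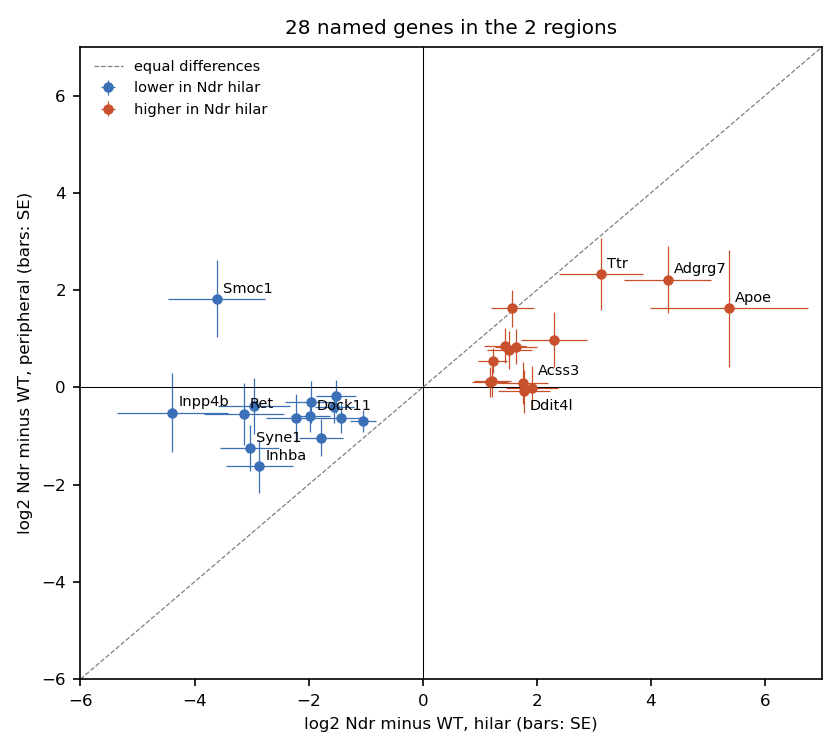
Log2 difference (Ndr minus WT) of the 28 genes in hilar (x axis) and peripheral (y axis) organoids, with bars of 1 SE from the edgeR fit; the dashed line marks equal differences. Most points lie between the line and the horizontal axis, and Smoc1 lies at -3.61 and 1.82, on opposite sides of 0.

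The gene groups of the biliary epithelium itself did not move as blocks. Of 20 tested cholangiocyte markers, 9 were higher and 11 lower in Ndr with a median of -0.11, and of 24 genes of ductal ion and bile acid transport, 9 were higher and 15 lower with a median of -0.20 and 0 at an unadjusted edgeR p under 0.05. The transport median turned to 0.397 with derivation date as a factor, with 16 higher and 8 lower, and to 0.308 on counts recovered from the authors' normalized table; it ranged from -0.358 (without WT 1225) to -0.0866 (without Ndr 1219) when 1 library was left out. The cholangiocyte marker median ranged from -0.314 (without Ndr 1219) to -0.00401 (without Ndr 1220) when 1 library was left out. It was -0.504 with date as a factor, with 8 higher and 12 lower, and -0.418 on the recovered counts. Without WT 1221, 13 of the 20 markers were lower. In that fit 6 lower and 1 higher were at an unadjusted edgeR p under 0.05, against 2 lower and 0 higher with all libraries. Of 20 biliary transcription factors, 13 were higher with a median of 0.28, which ranged from 0.0775 (without Ndr 1220) to 0.483 (without Ndr 1219) and was 0.127 without WT 1225, 0.145 without Ndr 1224, 0.153 without WT 1223 and 0.565 with date as a factor. Foxa1, a pioneer factor of hepatic endoderm, was at 91.2, 54.7 and 49.6 CPM in WT and 49.0, 15.9 and 22.7 CPM in Ndr (log2 difference -1.15, SE 0.426), a narrow separation. Prom1, the membrane protein CD133 used as a progenitor marker, was at 871, 1082 and 491 CPM in WT and 340, 180 and 482 CPM in Ndr (log2 difference -1.29, SE 0.482), and its sign changed on the authors' normalized table (0.051 by limma-trend). In the large-duct and mucous list, 9 of 15 tested genes were higher with a median of 0.45, and members lay far apart in opposite directions. Without Ndr 1219, the highest library in 7 of the 15, the median was -0.0354 with 6 higher and 9 lower, and without WT 1221 it was 0.148. Reg3b, an antimicrobial lectin, was at 32.3, 6.64 and 0.754 CPM in WT and 2551, 287 and 153 CPM in Ndr, and its near copy Reg3g at 9.39, 2.47 and 0.377 CPM in WT and 473, 30.0 and 46.7 CPM in Ndr. Both separated the genotypes with spreads of more than 10 times inside each one, and how reads shared by the 2 copies were counted is not known here. Pigr, the carrier of secretory antibodies into bile, was at 6.28, 55.9 and 5.53 CPM in WT and 3.10, 0.784 and 4.09 CPM in Ndr (log2 difference -3.07 with WT 1223 and -1.15 without it).

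Genes of mitosis had the lowest median of the lists given here, and a single library carried most of it. All 44 tested members had lower values in Ndr, with a median log2 difference of -1.80 and 31 at an unadjusted edgeR p under 0.05. Of all tested genes, 3.68% were lower at that p. Plk1, the kinase that drives spindle assembly and mitotic exit, was at 14.03, 9.11 and 86.7 CPM in WT and 7.16, 4.70 and 5.49 CPM in Ndr (log2 difference -2.65, SE 0.72, DESeq2 adjusted p = 0.0322). Espl1, the protease separase that releases sister chromatids, was at 8.17, 4.02 and 40.2 CPM in WT and 2.998, 2.35 and 3.06 CPM in Ndr (log2 difference -2.63, SE 0.694, DESeq2 adjusted p = 0.0329). The other WT cultures were also above the Ndr cultures in both genes, by far less than WT 1225 was, and without WT 1225 the log2 differences were -1.01 for Plk1 and -1.13 for Espl1. Mki67, the proliferation antigen, was at 61.3, 18.7 and 269 CPM in WT and 23.2, 28.9 and 20.05 CPM in Ndr. Top2a, which untangles replicated DNA, was at 108, 82.0 and 508 CPM in WT and 89.4, 51.9 and 60.1 CPM in Ndr, with WT 1223 below all Ndr values of Mki67 and inside the Ndr range of Top2a. WT 1225 was the highest of the 6 libraries in 43 of 44 mitosis genes, against 22.2% of all tested genes. Without WT 1225 the list median was -0.414, with 40 genes lower and 4 higher. In that fit 4 genes, all lower, were at an unadjusted edgeR p under 0.05. At the other end, Ndr 1220 was the lowest library in 33 of 44, against 23.8% of all tested genes. The median was -1.6 without Ndr 1220. The 31 genes became 16 without Ndr 1220 and 19 without Ndr 1224. In the periphery the median was 0.36 and 40 of 44 genes were higher in Ndr.

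The mitosis promoters show what these genes share in sequence. Plk1 and Espl1 are printed because they were the members called by DESeq2, with 250 bases before and 50 after the start of transcription from RefSeq on GRCm38.p6, at chr7:122159185-122159484 and chr15:102296043-102296342, both on the plus strand. Capitals mark TTTGAA, the letters of the cell cycle homology region bound by complexes that regulate late cell cycle genes, and CCAAT or its complement ATTGG, the box bound by NF-Y.
Plk1: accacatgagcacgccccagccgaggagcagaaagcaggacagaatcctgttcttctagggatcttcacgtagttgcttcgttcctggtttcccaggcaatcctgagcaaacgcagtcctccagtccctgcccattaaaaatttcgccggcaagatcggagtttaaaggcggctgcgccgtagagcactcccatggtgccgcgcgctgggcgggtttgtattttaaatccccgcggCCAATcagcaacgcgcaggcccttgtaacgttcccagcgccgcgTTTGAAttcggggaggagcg
Espl1: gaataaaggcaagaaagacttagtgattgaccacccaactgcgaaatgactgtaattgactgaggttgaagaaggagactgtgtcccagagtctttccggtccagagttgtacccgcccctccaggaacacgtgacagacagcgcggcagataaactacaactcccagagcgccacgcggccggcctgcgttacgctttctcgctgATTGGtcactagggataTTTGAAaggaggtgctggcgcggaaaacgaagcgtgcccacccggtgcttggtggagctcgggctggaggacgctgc
In Plk1 the marked CCAAT begins at position -14 and TTTGAA at position 31 relative to the start site, and in Espl1 ATTGG begins at -44 and TTTGAA at -27. Both strands were searched and the marked motifs do not overlap. TTTGAA was present for 27 of 37 mitosis genes with a promoter found (73%), against 20.2% of all 27025 genes with a promoter of that length. A gene counted once if any of its promoters matched. CCAAT was present in 28 of 37 (75.7%) against 41.1%, and the pair in 24 of 37 (64.9%) against 8.97%. TTTGAA was present for 4 of 34 DNA replication genes with a promoter found (11.8%). A match is a description of letters in a window and does not show binding.

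Other growth-related lists followed WT 1225 in the same way. Of 40 tested DNA replication genes, 39 were lower in Ndr with a median of -0.745. Of these, 9 were at an unadjusted edgeR p under 0.05, against 3.68% of all tested genes. WT 1225 was the highest library in 38, and without it the median was 0.114 with 23 higher and 17 lower. Leaving out 1 library gave 0 (WT 1225) to 22 (WT 1223) lower genes at that p. Uhrf1, which maintains DNA methylation at replication, was at 29.6, 11.3 and 110 CPM in WT and 17.5, 14.2 and 12.6 CPM in Ndr. Of 27 cholesterol synthesis and uptake genes, 25 were lower with a median of -0.52, WT 1225 was highest in 24, and the median without it was 0.0286. Glycolysis and hypoxia genes were lower in 29 of 34 with a median of -0.58, WT 1225 highest in 25 and Ndr 1220 lowest in 24; the median was -0.229 without WT 1225 and -0.392 without Ndr 1220. For ribosome biogenesis, the list that holds Polr1b, 33 of 40 genes were lower with a median of -0.25. Of these, 4 were at an unadjusted edgeR p under 0.05, against 3.68% of all tested genes. WT 1225 was highest in 25, and the median was -0.115 without it and -0.163 without Ndr 1220. A fit with a term for derivation date gave medians of -2.91 for mitosis, -1.49 for DNA replication, -1.15 for cholesterol and -0.419 for ribosome biogenesis. The genotype difference in that fit leans on the same-day pair, Ndr 1224 and WT 1225. In that pair alone the medians were -3.35, -1.90, -1.28 and -0.445, so the fit is no check independent of WT 1225. The G1 regulators Ccnd1 and Myc gave -0.79 (SE 0.322) and -0.58 (SE 0.233); Myc was at 159, 186 and 163 CPM in WT and 118, 82.2 and 141 CPM in Ndr, a separation in which WT 1225 did not stand apart.

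**Figure D5:**
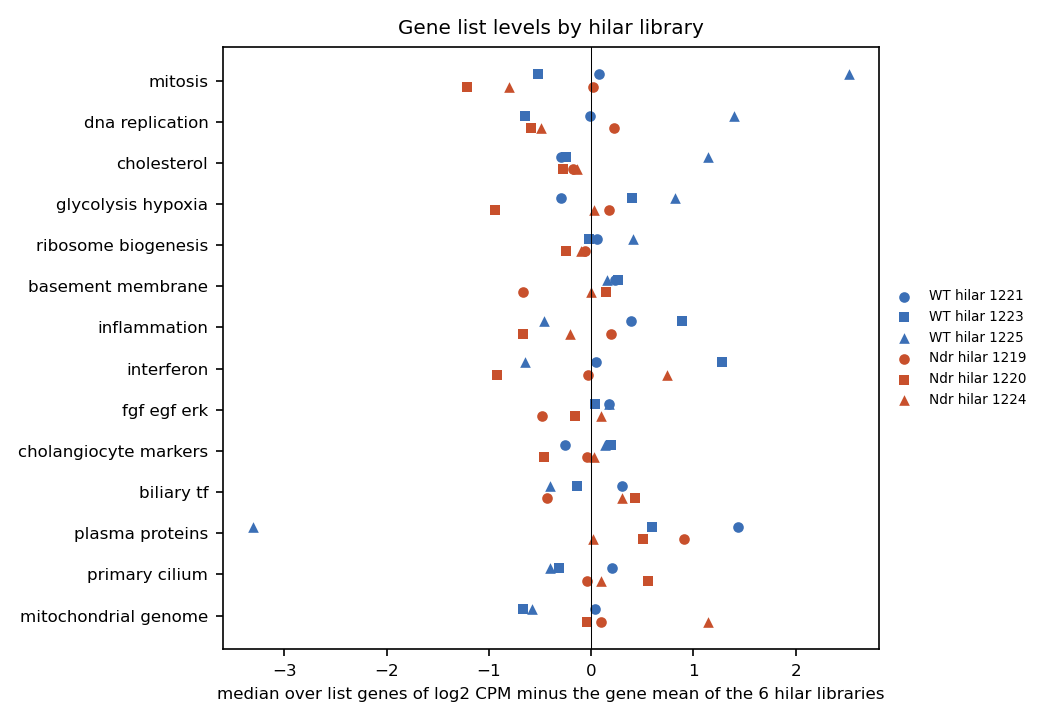
Level of 14 gene lists in each hilar library, as the median over the genes of a list of log2 CPM minus the gene's mean over the 6 hilar libraries (blue WT, red Ndr). WT 1225 stands alone at 2.52 for mitosis and 1.40 for DNA replication, and Ndr 1224 at 1.15 for the mitochondrial genome.

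Extracellular matrix and its receptors gave separations in which WT 1225 was not alone. Of 34 tested basement membrane and integrin genes, 25 were lower in Ndr with a median of -0.42, 6 of them and 1 higher gene at an unadjusted edgeR p under 0.05. Of all tested genes, 3.68% were lower and 2.86% higher at that p. Of the 34, 8 lay wholly below WT, against 4.18% of all tested genes. Itga6, the laminin-binding integrin chain of the basal surface, was at 92.1, 174 and 295 CPM in WT and 61.3, 35.1 and 87.2 CPM in Ndr (log2 difference -1.61, SE 0.472). Itga2, a collagen-binding chain, was at 324, 794 and 500 CPM in WT and 203, 118 and 307 CPM in Ndr (log2 difference -1.37, SE 0.491). Itga1 and Col18a1, which encodes a basement membrane collagen, gave -1.05 (SE 0.369) and -0.83 (SE 0.353), each with no overlap, though the sign of Itga1 changed on the authors' normalized table (0.015 by limma-trend). Leaving out WT 1225 gave a list median of -0.423 for the basement membrane, and leaving out Ndr 1219, the lowest library in 16 of 34 genes, gave -0.222. Cultures were grown in a basement membrane gel by the protocol the labels cite, and its part in these values was not tested. Matricellular genes went in both directions. Tnc, the matrix protein tenascin-C, was at 16.3, 40.3 and 6.41 CPM in WT and 4.26, 0.131 and 0.894 CPM in Ndr (log2 difference -3.50, SE 0.992, DESeq2 adjusted p = 0.0309), with a like difference of -3.31 (SE 0.948) in the periphery; leaving out a hilar library gave -5.31 (without Ndr 1219) to -2.63 (without WT 1223). Sparc, a collagen-binding matrix protein, was at 0.427, 0.309 and 0.126 CPM in WT and 1.93, 5.49 and 4.09 CPM in Ndr (log2 difference 3.60, SE 0.834, DESeq2 adjusted p = 0.0345). Vcan, a large proteoglycan, gave -2.39 (SE 0.763).

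Growth factor and inflammatory signals were mixed. Of 25 tested FGF, EGF and ERK genes, 16 were lower with a median of -0.21, 6 of them at an unadjusted edgeR p under 0.05. Of all tested genes, 3.68% were lower at that p. The list median was -0.0872 without Ndr 1219, -0.102 without WT 1225 and -0.41 without Ndr 1224, and the 6 genes became 3 without WT 1225. Fgfr3, an FGF receptor, was the 1 higher gene under 0.05, at 17.4, 24.1 and 7.16 CPM in WT and 55.5, 67.8 and 221 CPM in Ndr (log2 difference 2.82, SE 0.912). Ndr 1224 held the highest value, and the lowest Ndr value was above all WT values. The ligand Ereg, the ERK-responsive factor Etv4 and the ERK phosphatase Dusp5 gave -1.83 (SE 0.609), -1.72 (SE 0.596) and -1.33 (SE 0.417), and the receptor Egfr -0.79 (SE 0.351). Of 37 inflammatory genes, 31 were lower in Ndr with a median of -0.748. Of the 31, 11 were at an unadjusted edgeR p under 0.05, against 3.68% of all tested genes. Cxcl2, a neutrophil chemokine, was at 42.9, 60.7 and 24.0 CPM in WT and 21.8, 6.92 and 12.3 CPM in Ndr (log2 difference -1.63, SE 0.483). Cx3cl1, the membrane-bound chemokine fractalkine, was at 53.5, 64.9 and 72.0 CPM in WT and 32.2, 34.2 and 37.7 CPM in Ndr (log2 difference -0.87, SE 0.295). Both chemokines separated the genotypes, Cxcl2 by a narrow margin. Il33, an alarmin of epithelial cells, was at 5.37, 34.1 and 184 CPM in WT and 6.29, 2.87 and 2.94 CPM in Ndr, so WT 1221 fell among the Ndr cultures although DESeq2 gave an adjusted p of 0.00952; the log2 difference was -4.19 (SE 1.16), and -2.28 without WT 1225. Lif and Nfkb2 gave -1.05 (SE 0.353) and -0.75 (SE 0.266). The list median was -0.395 without WT 1223 and -1.01 without WT 1225, the 11 genes became 5 without WT 1223 or Ndr 1220, and with derivation date as a factor it was 0.0431, with 19 genes higher and 18 lower. Interferon genes, lower in 24 of 31 with a median of -0.30, had WT 1223 as the highest library in 21 and a median of 0.213 without it. The interferon median was -1.09 without Ndr 1224, -0.02 without Ndr 1220 and 0.709 with date as a factor. In the same-day pair (Ndr 1224 minus WT 1225) the list medians were 0.25 for inflammation and 1.31 for interferon, against -3.35 for mitosis and -0.28 for the basement membrane.

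Genes of the primary cilium, the antenna through which cholangiocytes sense bile flow, leaned the other way. Of 54 tested genes, 48 had higher values in Ndr with a median of 0.43 and 6 at an unadjusted edgeR p under 0.05, all of them higher. Of all tested genes, 2.86% were higher at that p. Bbs10, a chaperonin-like gene needed to assemble the BBSome coat, was at 6.46, 3.71 and 4.27 CPM in WT and 11.99, 11.5 and 7.02 CPM in Ndr (log2 difference 1.07, SE 0.314). Dync2li1, a light chain of the motor for return transport in the cilium, was at 61.7, 50.05 and 20.1 CPM in WT and 95.8, 89.6 and 65.2 CPM in Ndr (log2 difference 0.92, SE 0.377). Both separated the genotypes, as did Ofd1, a protein of the ciliary base, at 0.60 (SE 0.252). The transport subunit Ift57 was at 64.2, 51.9 and 29.9 CPM in WT and 78.6, 98.2 and 60.0 CPM in Ndr (log2 difference 0.70, SE 0.298), with the lowest Ndr value below the highest WT value. Arl6 and Kifap3 gave 0.73 (SE 0.293) and 0.71 (SE 0.315). Ndr 1220 was the highest library in 31 of 54 genes and WT 1225 the lowest in 23. The median was 0.234 without Ndr 1220, with 39 higher and 15 lower, and 0.326 without WT 1225; the 6 genes became 19 without WT 1221 and 2 without WT 1223, WT 1225 or Ndr 1220. In the periphery 19 of the 54 were higher in Ndr and the median was -0.08.

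The Ift57 promoter is shown as an example of a cilium gene promoter that holds the letters GTTGCC, at chr16:49699044-49699343 on the plus strand of GRCm38.p6 (RefSeq). No rule was set for its choice, and it does not stand for the whole group. Capitals mark GTTGCC, the opening letters of the X-box bound by RFX factors, which regulate cilium genes.
Ift57: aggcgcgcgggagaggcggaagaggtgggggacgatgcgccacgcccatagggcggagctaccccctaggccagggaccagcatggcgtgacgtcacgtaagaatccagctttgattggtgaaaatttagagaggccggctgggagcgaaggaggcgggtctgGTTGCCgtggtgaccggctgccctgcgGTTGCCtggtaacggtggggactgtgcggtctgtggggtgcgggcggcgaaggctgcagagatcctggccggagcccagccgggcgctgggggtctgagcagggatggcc
GTTGCC begins at -87 and at -60 in this window. On either strand it was present for 22 of 47 cilium genes with a promoter found (46.8%), against 14.1% of all genes and 13.5% of those of mitosis. For RBPJ, the DNA-binding partner of Notch, the core letters are TGGGAA. They were present for 4 of the 21 genes with a promoter found among the 28 named above (19%), against 28.3% of all genes. They were also in 0 of 2 Notch target genes and in 41.2% of DNA replication genes with a promoter found. Of the 4 tested Notch targets, Hes1 and Hey1 had no promoter in the reference and were not searched. With only 2 promoters, whether the letters in this window tell Notch targets apart cannot be judged.

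Detoxifying and mitochondrial transcripts closed the set of lists. Of 42 xenobiotic and antioxidant genes, 25 were higher with a median of 0.12 and 4 were at an unadjusted edgeR p under 0.05, all higher. Of all tested genes, 2.86% were higher at that p. The list had no steady direction: without Ndr 1219 the median was -0.109 with 19 higher and 23 lower, without WT 1221 it was -0.00973 with 2 lower genes under 0.05, without Ndr 1224 it was 0.00919, without Ndr 1220 it was 0.203, with date as a factor it was -0.0493 and on the recovered counts it was -0.128. Cbr1, a carbonyl reductase, was at 50.6, 67.4 and 54.0 CPM in WT and 135, 65.8 and 108 CPM in Ndr (log2 difference 0.85, SE 0.245), where Ndr 1220 fell just inside the WT range. Nqo1, a quinone reductase, was at 0.305, 0.927 and 0 CPM in WT and 2.52, 1.04 and 6.00 CPM in Ndr (log2 difference 3.01, SE 1.15). The periphery gave nearly equal differences of 0.94 (SE 0.246) for Cbr1 and 2.98 (SE 1.09) for Nqo1. Transcripts of the mitochondrial genome were higher in 13 of 15 with a median of 0.834 and 0 at an unadjusted edgeR p under 0.05. Ndr 1224 was the highest library in 13 of the 15, at 1.96% of its counts against 0.582% to 0.91% in the others, and the median was 0.415 without it and 1.57 with date as a factor.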

How the data were processed

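RNA was sequenced from 12 organoid cultures, 3 for each genotype and region, and the 6 hilar ones are compared here. The authors deposited raw read counts per gene, and the submitters' processing notes name featureCounts and the build GRCm39. The aligner, annotation, strand setting and handling of shared reads were not given in the sources used here. A second table deposited by the authors holds a normalized signal per gene; the submitters' processing notes name DESeq2 1.34.0. Divided by 1 step per library, 100% of its hilar values came out as whole reads within 0.01. Of these, 43.1% matched the raw count, while 99.4% matched raw counts adjusted here with ComBat-seq (sva 3.50.0) for derivation date, keeping genotype, a step that the headers and labels do not name. edgeR called 826 of 14203 genes (5.82%) on the recovered counts, in a test that took no account of that adjustment. Results here rest on the raw counts.

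The test was the robust quasi-likelihood test of edgeR 4.0.16 (TMM, filterByExpr; R 4.3.3) over 12 libraries and 4 group means, which leaves 8 residual degrees of freedom, and p was adjusted by Benjamini-Hochberg over 15014 genes with a threshold of 0.05. CPM used TMM-scaled library sizes and compares libraries, not genes, since it is not per length. SE were computed back from the difference and its F statistic. DESeq2 1.42.0, limma 3.58.1 (voom, and trend on log2 of the normalized signal plus 1), other scalings, no filter, derivation date as a factor and leaving out each hilar library were alternatives. The scripts were tested on simulated data. Intervals from counting alone are not given, as replicates set the error.

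Named genes were Jag1, the Notch genes, the 14 lower and 14 higher genes with a symbol, at least 5 CPM in the higher group and the smallest p, and of each list up to 6 members at an unadjusted p under 0.05 and the 3 most abundant. Other genes were named after their values were seen: Alb, Wt1, Lgr5 and Odc1. Of 1007 list symbols in 43 lists, 1002 matched; symbols came from GENCODE M21 on GRCm38, used for names only, and 28 tested genes had none. Values of some single list genes are not reported here. The comparison, the members and the lists were chosen with earlier results of these data known. Hilar and peripheral cultures of 1 number come from the same mouse, so the numbers pair libraries across regions but not across genotypes; their deviations from group means correlated at -0.318 to 0.454.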

Additional observations from a re-analysis of the deposited data

How the results depend on the processing

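Across alternatives, 1244 single-gene results kept direction and side of the threshold, 130 kept direction and passed it, and 30 changed sign; 397 list medians stayed within their spread and 38 moved. The hilar comparison called 42 genes by DESeq2, 1446 by limma-trend on the authors' normalized table and 826 on the recovered counts. The last was an alternative chosen after seeing the data, as was the same-day pair. The date adjustment can make p too small in the limma-trend and recovered-count settings, also for the 28 leading genes. The interaction called 4 genes by DESeq2 and 2 by limma-trend. At an unadjusted p under 0.05 there were 606 genes with only the 6 hilar libraries, 4318 by limma-trend and 3355 on recovered counts; leaving out 1 library gave 514 (without Ndr 1220) to 1985 (without WT 1221), with 518 without WT 1225. The mouse as a replicate block in limma-voom gave 0 called and 765 unadjusted genes, against 788 without the block, and the estimated correlation was -0.135, so the pairing changed no call. Signs changed as follows; the cause was not tested. By limma-trend: Dtx1 3.44, Itga1 0.015, Notch3 -1.61, Prom1 0.051. With date as a factor: Dtx1 3.001, Notch3 -0.71, Prom1 0.019. On recovered counts: Dtx1 3.80, Itga1 0.029, Notch3 -0.92, Prom1 0.078. By limma-voom with the block: Notch2 -0.034, Notch3 -0.11, Notch4 0.041; without it: Notch2 -0.033, Notch3 -0.12, Notch4 0.030. With 1 library left out, Jag1 ranged from -0.067 (without Ndr 1220) to 0.69, Notch2 from -0.52 (without Ndr 1220) to 0.63, Notch3 from -0.20 (without Ndr 1220) to 0.53, Notch4 from -0.40 to 0.29 (without WT 1225), Hes1 from -0.15 (without WT 1225) to 0.29, Dtx1 from -1.39 to 0.050 (without WT 1221), Clu from -0.12 (without WT 1225) to 0.75 and Lgr5 from -0.11 (without Ndr 1220) to 0.32. Of the 28 leading genes, 23 were called by DESeq2, 24 by limma-trend and 21 on recovered counts, and 0 in the other settings. The replicate SD had a median near 0.43 log2 units and differs by gene, so with 3 cultures a genotype the size of a difference that can be called differs too, and derivation date and genotype can be compared on 1 day only.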

Other observations

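Some genes called by DESeq2 were not covered by the naming rule and are given here with their values already known. Hmga2, an architectural chromatin protein related to Hmga1, was at 20.8, 135 and 71.7 CPM in WT 1221, 1223 and 1225 and at 3.67, 5.62 and 16.2 CPM in Ndr 1219, 1220 and 1224, a separation with a DESeq2 adjusted p of 0.0309. Rnps1, an RNA-binding protein of the splicing machinery, had a small difference with little spread, at 59.0, 55.0 and 57.8 CPM in WT and 41.8, 37.6 and 39.7 CPM in Ndr (log2 difference -0.53, SE 0.15, DESeq2 adjusted p = 0.014). Eif3j1, a translation initiation subunit, was at 47.6, 57.6 and 71.3 CPM in WT and 37.2, 23.5 and 29.0 CPM in Ndr, and its peripheral log2 difference of -0.83 was close to the hilar -0.97. Rcn1, a calcium-binding protein of the endoplasmic reticulum, was at 7.75, 7.72 and 1.13 CPM in WT and 59.8, 26.8 and 49.0 CPM in Ndr (log2 difference 3.02, SE 0.81).

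Rgs16, which shortens G protein signals, was at 64.2, 159 and 27.8 CPM in WT and 22.4, 10.1 and 7.15 CPM in Ndr hilar cultures, and it separated the genotypes in the periphery as well (log2 differences -2.65 and -3.21). Rbm38, an RNA-binding protein, separated them in opposite directions. It was at 18.1, 14.2 and 14.3 CPM in WT and 9.57, 7.84 and 8.68 CPM in Ndr hilar cultures, and at 12.6, 11.4 and 12.3 CPM in WT and 15.9, 20.1 and 17.8 CPM in Ndr peripheral cultures. Its interaction had an unadjusted edgeR p of 0.00049 and an edgeR adjusted p of 0.994, so the edgeR threshold was not passed. In the immune direction, Csf3, the granulocyte colony-stimulating factor, was at 24.8, 515 and 49.4 CPM in WT and 10.9, 0.784 and 4.34 CPM in Ndr; WT 1223 held most of the WT reads, and the log2 difference ranged from -6.25 to -2.76 when 1 library was left out.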
